A study of Homo sapiens with 4 samples.

Results

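TXNIP, 3 of its arrestin relatives (ARRDC2, ARRDC3 and ARRDC4), THRSP and the glucose-sensing factor genes MLXIP, MLXIPL and MLX were followed in OVCAR-3 cells, a cultured line derived from a human ovarian carcinoma. These 8 genes were taken by symbol from the platform annotation, each has exactly 1 transcript cluster (the group of probes that reads a gene), and 18417 genes were measured on clusters of their own. Transcript levels were read on 2 arrays from OVCAR-3 cells labelled as overexpressing human H1.3, a linker histone, and on 2 arrays from OVCAR-3 cells transfected with vectors lacking H1.3. An added (H) in the titles of the H1.3 arrays is left unexplained by the labels. The labels name no promoter, clone or selection, and do not say whether replicates came from separate transfections, so any p-value measures the spread between these arrays.

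TXNIP and THRSP were selected on their log2 differences between the groups, which were already known to be large, and the other 6 genes were added by function. All differences between the groups are therefore given for the 8 genes as a description, without a test. Values are log2 levels, so a difference of 1 is a doubling, and the levels of different genes are not set against each other. The SE of each difference is limma's moderated SE, which draws the variance of a gene toward that of all clusters. For a gene with widely spread arrays, such as TXNIP, THRSP or ARRDC4, it is smaller than its own arrays alone give.

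MondoA (encoded by MLXIP) and ChREBP (encoded by MLXIPL) are transcription factors that respond to phosphorylated hexoses and bind DNA together with their partner MLX. Their binding sequence, the carbohydrate response element, is a pair of E-box-like half-sites set a few bases apart. TXNIP, which binds thioredoxin and lowers glucose uptake, and its relative ARRDC4 are textbook targets of MondoA, while THRSP, a nuclear protein of fat synthesis in liver, adipose and mammary tissue, is a target of ChREBP. Fewer cells of a kind and less RNA per cell cannot be told apart in such bulk samples.

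The 250 bases before the transcription start of TXNIP, ARRDC4 and THRSP are shown because these are the target genes of the factors among the 8. The sequences are from RefSeq (GRCh38.p14), which lists windows for all 8 genes, the first being used where a gene has several, and cover chr1:145996580-145996829 on the minus strand for TXNIP, chr15:97960453-97960702 on the plus strand for ARRDC4 and chr11:78063611-78063860 on the plus strand for THRSP. Capitals mark the E-box CACGTG, the paired half-sites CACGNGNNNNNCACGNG and the CCAAT box, each searched on both strands, so that ATTGG is a CCAAT box read from the other strand.
TXNIP: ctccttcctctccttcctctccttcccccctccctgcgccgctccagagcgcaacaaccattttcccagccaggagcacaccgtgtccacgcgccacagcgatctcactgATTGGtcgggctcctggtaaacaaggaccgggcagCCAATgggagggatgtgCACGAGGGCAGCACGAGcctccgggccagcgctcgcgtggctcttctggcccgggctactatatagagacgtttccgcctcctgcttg
ARRDC4: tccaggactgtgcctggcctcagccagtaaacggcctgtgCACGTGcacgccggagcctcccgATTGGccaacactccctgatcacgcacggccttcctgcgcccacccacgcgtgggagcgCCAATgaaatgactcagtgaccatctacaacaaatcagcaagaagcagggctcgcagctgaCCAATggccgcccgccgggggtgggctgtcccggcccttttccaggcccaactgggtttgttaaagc
THRSP: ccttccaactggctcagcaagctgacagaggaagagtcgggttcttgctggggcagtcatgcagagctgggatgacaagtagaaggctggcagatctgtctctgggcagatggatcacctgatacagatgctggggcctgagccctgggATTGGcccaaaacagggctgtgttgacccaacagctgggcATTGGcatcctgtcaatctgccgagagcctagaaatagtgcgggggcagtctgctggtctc

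In TXNIP the paired half-sites lay from base -88 to -72 relative to the start, downstream of CCAAT boxes that began at -140 and -105. The pattern of the paired half-sites was written to match the TXNIP letters, so its presence there is no finding. It occurred in 16 of 34943 RefSeq windows of the same length, or 0.0458%. The E-box CACGTG occurred in 6.32% and the CCAAT box in 32% of the windows. The ARRDC4 window held an E-box that began at -210 and CCAAT boxes that began at -187, -128 and -67. The THRSP window held CCAAT boxes that began at -101 and -61, without an E-box or paired half-sites in the spelling searched. Half-sites spelled otherwise were not searched, so a missing match does not show that a window lacks a carbohydrate response element. Among the factor genes, MLX had an E-box that began at -50. These matches describe letters in a window and say nothing about binding in OVCAR-3 cells. Of the other genes whose window held the paired half-sites, 14 were measured, at differences of -0.55 to 0.23 with a median of 0.04, and their lowest adjusted limma p was 0.545, for RCN3. GFPT1, which encodes the enzyme that opens the hexosamine pathway, was among them, at 0.06 ± 0.12 (SE).

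**Figure D1:**
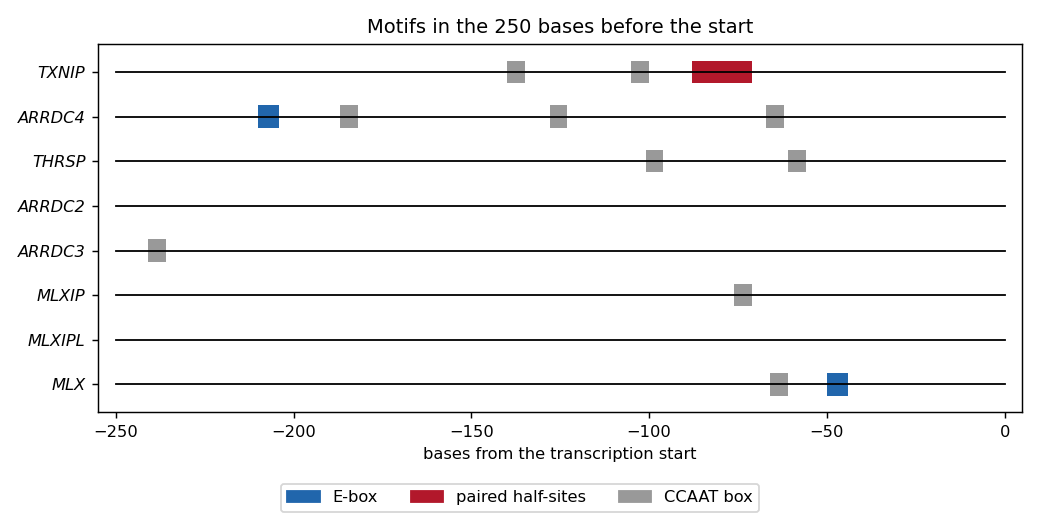
The horizontal axis gives bases from the transcription start, each line is the 250-base RefSeq window of a gene, and blocks mark the E-box, the paired half-sites and the CCAAT box. Paired half-sites in the spelling searched, which was written to match TXNIP, occur only in the TXNIP window among the 8 genes, and E-boxes only in those of ARRDC4 and MLX.

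The labelled cell type was checked against its markers. All 12 markers of ovarian carcinoma epithelium stood at or above 6.84, the median level of the named clusters, on each of the 4 arrays, among them PAX8 at 10.97 to 11.20 and WT1 at 9.43 to 9.74. None of the endothelial, leukocyte, adipocyte or hepatocyte markers did so on all arrays, and 1 of 7 fibroblast markers did. H1-3, the gene of the transfected histone, ran against the labels without passing the test: under the H1.3 label it read 7.47 and 7.69, against 8.65 and 7.88 in the vector-only arrays, which is -0.69 ± 0.24 (SE), at an adjusted limma p of 0.319. Whether the probes of H1-3 read the transfected copy could not be examined. Directions below refer to the labels with these values in mind.

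TXNIP measured 11.28 and 10.84 in the arrays labelled H1.3, against 8.83 and 6.47 in the vector-only arrays. Both H1.3 arrays were above both vector-only arrays, with a gap of 2.01 between the nearest of them. The group means were 11.06 ± 0.31 and 7.65 ± 1.67 (SD, n = 2 each), a difference of 3.41 ± 0.64 (moderated SE), or 10.6-fold. This was the highest positive difference of the 21214 named clusters. The vector-only arrays decide its size. Set against vector-only replicate 1 alone, the H1.3 mean was 2.23 higher (4.69-fold) and ranked 5th from the top. Set against vector-only replicate 2 alone it was 4.59 higher (24.1-fold) and ranked 1st. The value of 6.47 in that replicate was below the median level of the named clusters.

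THRSP measured 9.96 and 9.77 in the arrays labelled H1.3, against 8.41 and 6.87 in the vector-only arrays. The groups did not overlap here either, and the gap was 1.36. The means of 9.87 ± 0.13 and 7.64 ± 1.09 (SD, n = 2 each) gave a difference of 2.23 ± 0.43 (SE), or 4.68-fold, the 6th highest of all named clusters. Against vector-only replicate 1 alone the H1.3 mean of THRSP was 1.46 higher and ranked 33rd, and against vector-only replicate 2 alone it was 7.97-fold higher and ranked 3rd.

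ARRDC4, the arrestin relative that shares MondoA control with TXNIP, did not show this separation. It measured 6.91 and 6.74 in the arrays labelled H1.3, against 7.26 and 6.46 in the vector-only arrays. Of these values only 6.91 and 7.26 reached the median level of the named clusters. The H1.3 arrays lay between the vector-only arrays, and the difference was -0.04 ± 0.24 (SE). Its sign followed the vector-only array used: the H1.3 mean was 0.44 below vector-only replicate 1 and 0.37 above vector-only replicate 2.

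**Figure D2:**
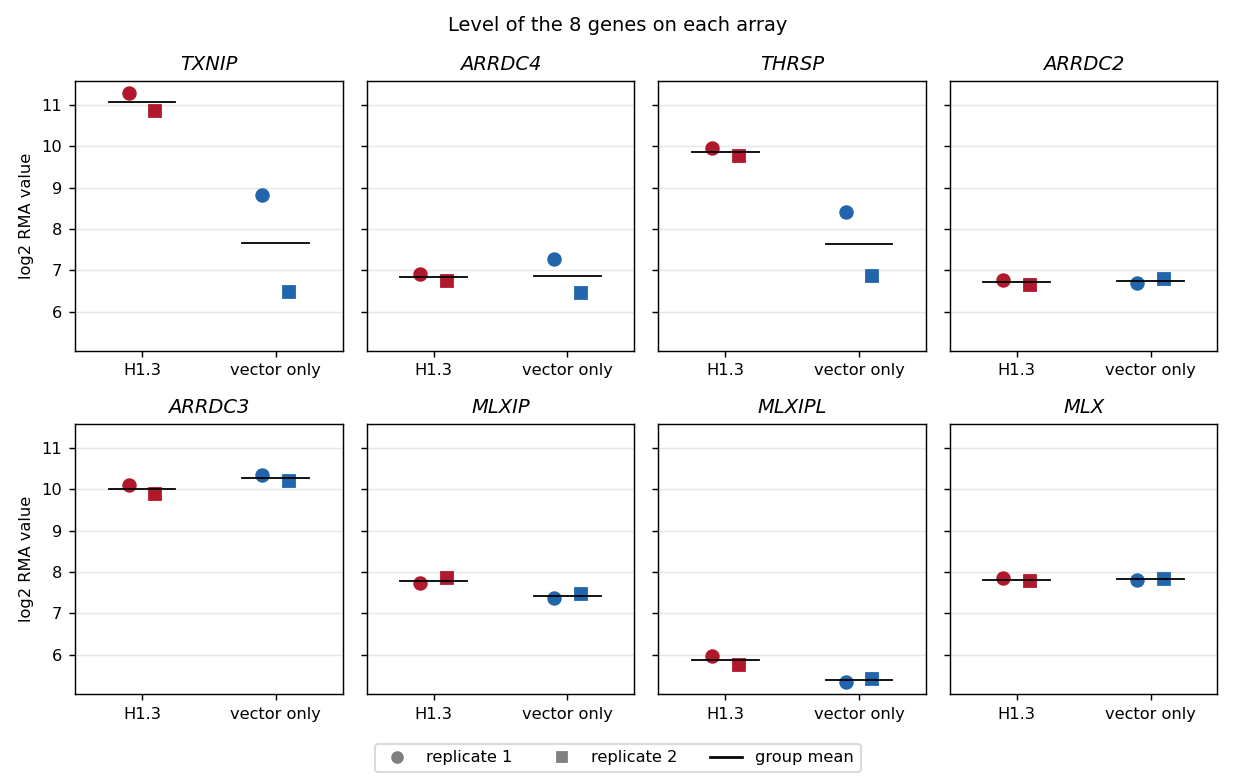
Log2 RMA values (vertical axis) of the 8 genes in the arrays labelled H1.3 (red, left) and the vector-only arrays (blue, right), with circles for replicate 1, squares for replicate 2 and a line at the group mean. TXNIP and THRSP lie higher in both H1.3 arrays and their vector-only arrays are far apart, while the H1.3 arrays of ARRDC4 lie between its vector-only arrays.

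The other arrestin relatives are membrane-trafficking adaptors. ARRDC3, which links receptors such as the beta2-adrenergic receptor to ubiquitin ligases of the NEDD4 family, measured 10.11 and 9.89 in the arrays labelled H1.3, against 10.34 and 10.21 in the vector-only arrays. Both H1.3 arrays were lower, by a gap of 0.10, and the difference was -0.28 ± 0.13 (SE). ARRDC2 measured 6.77 and 6.65 in the arrays labelled H1.3, against 6.69 and 6.80 in the vector-only arrays. Its groups overlapped, at a difference of -0.04 ± 0.12 (SE), and all its values were below the median level of the named clusters. The differences of ARRDC2 and ARRDC4 were smaller than their errors and changed sign when single arrays were left out, so no direction shared by the 3 relatives is read.

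Of the glucose-sensing factors, MLXIP, the gene of MondoA, measured 7.74 and 7.85 in the arrays labelled H1.3, against 7.38 and 7.46 in the vector-only arrays. The groups were separated by 0.28, and the difference was 0.38 ± 0.12 (SE). MLXIPL, the gene of ChREBP, measured 5.98 and 5.75 in the arrays labelled H1.3, against 5.35 and 5.42 in the vector-only arrays. Its groups were separated by 0.33 at a difference of 0.48 ± 0.13 (SE), with all values below the median level. MLX, the shared partner, measured 7.85 and 7.79 in the arrays labelled H1.3, against 7.82 and 7.84 in the vector-only arrays, and the difference of -0.01 ± 0.11 (SE) lay within the spread of both groups.

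In all, the groups did not overlap for 5 of the 8 genes, higher in the arrays labelled H1.3 for 4 and lower for 1, and they did not overlap for 40.6% of all named clusters (21.2% higher, 19.4% lower). The median difference of the 8 genes was 0.18, compared with 0.02 over all named clusters. Since the group difference was known when the genes were chosen, nothing is read from these counts.

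The spread within the groups is given as a description too, since a low vector-only array raises both this spread and the group difference on which TXNIP and THRSP were selected. In the vector-only arrays TXNIP differed by 2.36 between the replicates, against a median of 0.13 over all named clusters, and 3 of the 21214 clusters, TXNIP included, differed by as much. The others were NAP1L3, a nucleosome assembly protein gene, at 2.44, and the fibronectin gene FN1 at 2.36, both singled out after their values were seen. THRSP differed by 1.54 between the vector-only replicates, a spread reached by 24 clusters, itself included (0.113%), and ARRDC4 by 0.80, a spread reached by 1.17% of clusters. In all 3 genes replicate 2 was the lower vector-only array.

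For TXNIP, THRSP and ARRDC4 the spread was smaller between the arrays labelled H1.3. It was 0.44 for TXNIP, reached by 6.22% of clusters, 0.19 for THRSP and 0.17 for ARRDC4, against a median of 0.15. Replicate 1 was the higher H1.3 array in 7 of the 8 genes, MLXIP being the exception. The same share over all named clusters was not counted, so nothing is read from this. The other 5 genes differed by 0.06 to 0.23 between the H1.3 replicates and by 0.02 to 0.13 between the vector-only replicates, and each had the wider spread in the H1.3 arrays.

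The cut of 1.54 is the spread of THRSP itself, and 24 clusters reached it, TXNIP and THRSP among them. Replicate 2 was the lower vector-only array in 18 of them, and replicate 1 was higher in 47.8% of all named clusters. In 20 of the 24 the groups overlapped, and over all named clusters they did not overlap for 40.6%. The only 2 that were higher without overlap were TXNIP and THRSP, which were selected on that difference, so nothing is read from these counts. BNIP3, a mitophagy gene that hypoxia induces, was among the 24 and was picked out after its values were seen: it measured 9.19 and 8.28 in the arrays labelled H1.3, against 10.64 and 8.87 in the vector-only arrays.

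**Figure D3:**
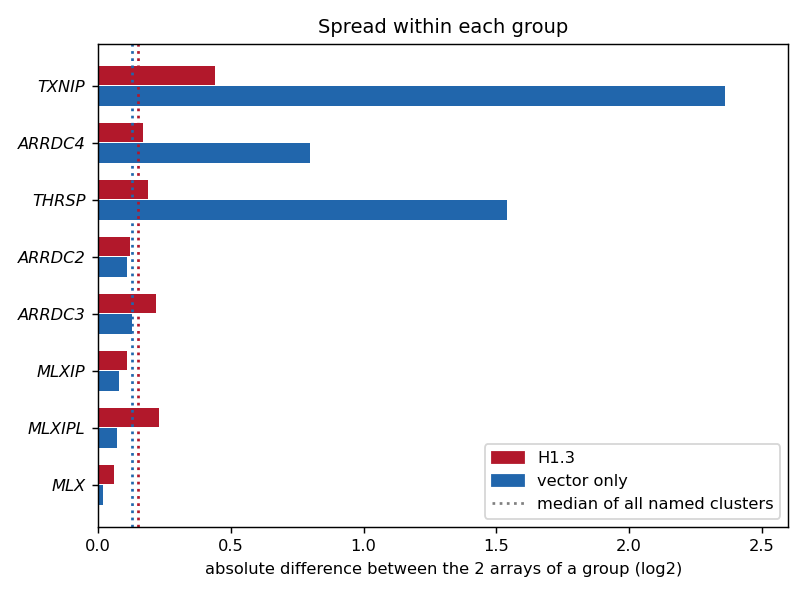
Bars give the absolute log2 difference between the 2 arrays of a group (horizontal axis), for the arrays labelled H1.3 (red, upper) and the vector-only arrays (blue, lower), and dotted lines the medians over all named clusters, 0.15 and 0.13. The vector-only bars of TXNIP (2.36), THRSP (1.54) and ARRDC4 (0.80) stand out from those of the other 5 genes.

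The gene whose 4 values, each taken from the gene's own mean, lay nearest to those of TXNIP was THRSP, at a root mean square distance of 0.67 log2 units over the 4 arrays. S100A8, a calcium-binding subunit of calprotectin, followed at 0.93, CNTN1, a neuronal adhesion molecule, at 1.00, GABBR2, a GABA-B receptor subunit, at 1.08, and NID2, a basement membrane protein, at 1.09. Of these, S100A8 measured 9.52 and 8.19 in the arrays labelled H1.3, against 6.32 and 6.16 in the vector-only arrays, so its wide pair was the H1.3 one. Nearest to THRSP were CNTN1 at 0.42, GABBR2 at 0.47, HEY2, a Notch target, and ACSL1, which activates fatty acids, both at 0.53, and STXBP5, a syntaxin-binding protein, at 0.55. ACSL1 measured 9.14 and 9.39 in the arrays labelled H1.3, against 7.93 and 7.48 in the vector-only arrays. TXNIP was 24th nearest to THRSP, and ARRDC4 was 2405th nearest to TXNIP. With 4 arrays and 2 groups, a small distance mostly says that a gene had a like group difference.

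The wider pathway was described with 10 lists that leave out the 8 genes. Of 163 list places, 151 were measured, on 149 genes, and 0 of these genes were called higher or lower by limma, against 0.504% of all named clusters. At an unadjusted p under 0.05, 9 were higher and 12 lower, which is 14.1% of the list genes, against 11.5% of all named clusters.

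The other targets of MondoA and ChREBP had a median difference of 0.10 over 23 measured genes, 17 positive and 6 negative, and 0 passed. Over all named clusters 53.5% of the differences were positive. PNPLA3, a lipid droplet lipase, measured 6.70 and 6.84 in the arrays labelled H1.3, against 6.12 and 6.18 in the vector-only arrays, which differ by 0.62 ± 0.12 (SE), adjusted p 0.0925. Of these values only the 6.84 reached the median level of the named clusters. TKFC, a kinase of fructose breakdown, measured 7.48 and 7.71 in the arrays labelled H1.3, against 8.33 and 8.17 in the vector-only arrays, which is -0.66 ± 0.13 (SE), adjusted p 0.107. The groups did not overlap for 8 of the 23 genes that were higher in the arrays labelled H1.3 and 2 that were lower. Over all named clusters the shares were 21.2% and 19.4%. Among those higher were genes of fat synthesis, picked out after their values were seen: the desaturase gene SCD at 0.82 ± 0.19, the malic enzyme gene ME1 at 0.65 ± 0.23 and the fatty acid synthase gene FASN at 0.55 ± 0.19 (SE), with adjusted p of 0.137, 0.326 and 0.305. Other fat synthesis genes of the list differed less. ELOVL6 at 0.335 and ACLY at 0.31 did not overlap, while ACACA at 0.175 and GPAM at 0.025 did. Between the vector-only arrays, 6 of the 23 genes were higher in replicate 1, as were 47.8% of all named clusters, and the median of replicate 1 minus replicate 2 was -0.14. The widest of the 6, picked out after their values were seen, were the hexokinase gene HK2 at 1.12 and PFKFB3, which makes an activator of glycolysis, at 0.50. The rest were KHK at 0.36, ELOVL6 at 0.20, TKFC at 0.16 and GPAM at 0.08.

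The regulators of fat synthesis around THRSP, 14 measured, had a median of 0.17, with 10 positive, and 0 passed. PPARGC1A, a coactivator of mitochondrial and fasting genes, measured 5.29 and 5.66 in the arrays labelled H1.3, against 4.69 and 4.63 in the vector-only arrays. All these values were below the median level of the named clusters. PPARGC1A differed by 0.82 ± 0.15 (SE), adjusted p 0.0841, and the fatty acid oxidation factor gene PPARA by 0.27 with an adjusted p of 0.487. MID1IP1, the paralog of THRSP and named here for that reason, measured 8.07 and 8.01 in the arrays labelled H1.3, against 7.94 and 7.69 in the vector-only arrays, which differ by 0.23 ± 0.13 (SE), adjusted p 0.589.

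TXN, the gene of thioredoxin, which TXNIP inhibits, measured 10.97 and 11.23 in the arrays labelled H1.3, against 11.13 and 11.05 in the vector-only arrays, a difference of 0.01 ± 0.13 (SE). The thioredoxin system had a median difference of 0.00 over 21 genes, with 10 positive and 11 negative and 0 passing. The peroxiredoxin gene PRDX2 differed by -0.66 (adjusted p 0.108) and MSRB3, a methionine sulfoxide reductase gene, by 0.52 (adjusted p 0.203).

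For genes that bring glucose into the cell and process hexose phosphates, 24 measured, the median was -0.06, with 14 negative, and 0 passed. SLC2A12, a glucose transporter gene, differed by -0.49 (adjusted p 0.193) and PGLS, of the pentose phosphate pathway, by -0.36 (adjusted p 0.317). The main transporter gene SLC2A1, whose protein TXNIP is known to remove from the cell surface, differed by -0.26 ± 0.16 (SE), adjusted p 0.623, and its groups overlapped. The energy-sensing kinase AMPK and its partners had a median of 0.08 over 13 genes, with PRKAA2 at 0.27 (adjusted p 0.487) and PRKAB2 at 0.30 (adjusted p 0.525).

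The other arrestin-fold genes had the lowest list median, -0.28 over 7 genes with 5 negative, and 0 passed. They were led by VPS26B, a retromer subunit gene, at -0.44 (adjusted p 0.196) and the beta-arrestin gene ARRB1 at -0.48 (adjusted p 0.239). The ubiquitin ligases and partners that alpha-arrestins recruit had a median of -0.10 over 11 genes, with HECW2 at 0.48 (adjusted p 0.239) and NDFIP2 at -0.26 (adjusted p 0.487). The MAX and MLX dimerization list, which also holds the E-box factor genes USF1 and USF2, had a median of 0.07 over 12 genes. Its members of smallest p were MXI1, an antagonist of MYC, at -0.26 (adjusted p 0.457) and USF1 at 0.26 (adjusted p 0.468).

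Genes of other known routes to TXNIP and ARRDC2 were listed too, and whether these routes act here was not tested. Glucocorticoid targets, listed together with the receptor gene NR3C1, had a median of 0.00 over 11 genes. TMT1A was at -0.65 (adjusted p 0.318) and ZBTB16 at 0.32 (adjusted p 0.381). FOXO factors and their targets had a median of 0.00 over 15 genes, with BCL2L11, a pro-apoptotic BH3 gene, at -0.57 (adjusted p 0.124) and FOXO4 at 0.24 (adjusted p 0.509). Adipocyte markers, the cells in which THRSP is best known, had a median of 0.01 over 5 genes, and their summed log2 level was 25.24 and 24.11 in the arrays labelled H1.3, against 24.48 and 24.65 in the vector-only arrays. Their members of smallest p were ADIPOQ at 0.16 (adjusted p 0.802) and LEP at -0.08 (adjusted p 0.873). Hepatocyte markers had a median of -0.10 over 5 genes, with SERPINA1 at -0.72 (adjusted p 0.082) and APOA1 at -0.17 (adjusted p 0.743). Among the markers of ovarian carcinoma epithelium, with a median of -0.14, these were EPCAM at -0.57 (adjusted p 0.111) and MSLN at -0.49 (adjusted p 0.232). In the lists of stromal and blood cells they were PDGFRB at 0.23 and COL1A1 at 0.10 for fibroblasts (median 0.06), KDR at -0.38 and CDH5 at 0.06 for endothelium (median 0.01), and PTPRC at 0.23 and LYZ at 0.17 for leukocytes (median 0.10), with adjusted p of 0.516 or more. None of the genes of these lists passed.

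**Figure D4:**
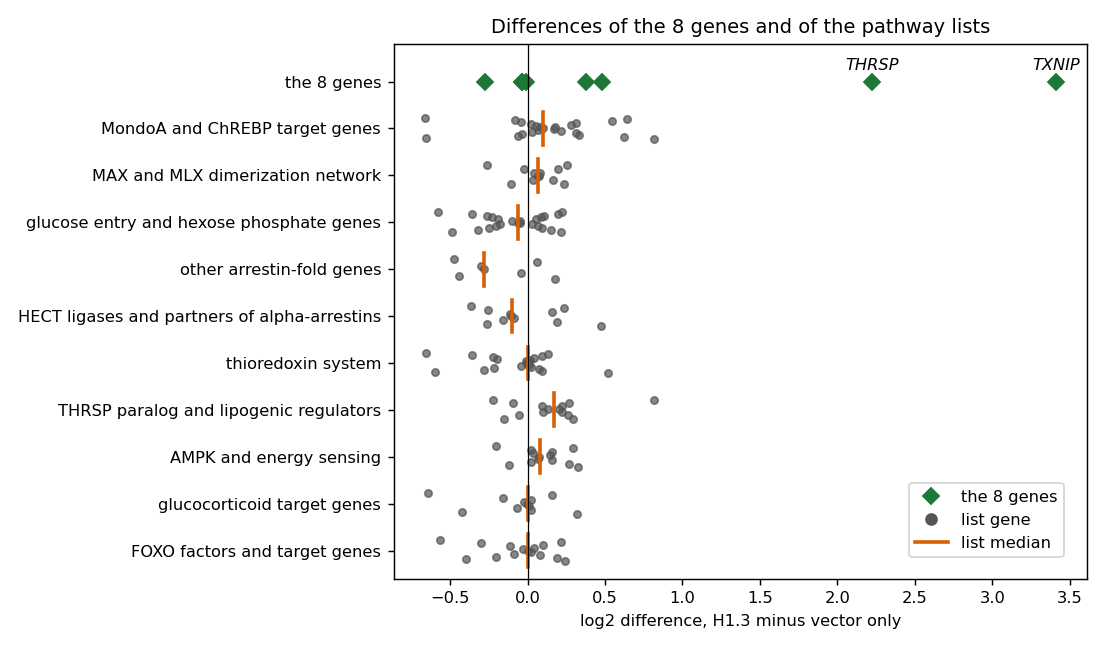
The horizontal axis gives the log2 difference, H1.3 minus vector only, for the 8 genes (diamonds, top line) and for each gene of the 10 pathway lists (dots), with an orange bar at each list's median. TXNIP (3.41) and THRSP (2.23) lie beyond all genes of the lists, whose differences run from -0.66 to 0.82.

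Each gene was also set beside its neighbours in RefSeq gene order. These were up to 15 genes on each side that had clusters of their own and a mean level at or above the median. The 30 neighbours of TXNIP on chromosome 1 had a median difference of 0.19, with 21 positive, and ran from -0.42 (TENT5C) to 0.70 (SV2A). The nearest of these, RBM8A at 0.33 and PRKAB2 at 0.30, had the sign of TXNIP, and the 5 just before TXNIP ran from 0.33 to 0.62 (PIAS3). With neighbours at any level, the nearest to TXNIP were POLR3GL at 0.23 and HJV at 0.145. Of those 30, 26 were positive and 4 negative, from -0.16 (ANKRD34A) to 0.62 (PIAS3). The 30 neighbours of THRSP on chromosome 11 had a median difference of -0.26, with 22 negative, and ran from -1.36 (PRSS23) to 0.34 (KCTD21). Here the sides differed: the 15 genes before THRSP had a median of -0.08 and the 15 after it of -0.52. Those next to THRSP, INTS4 at -0.28 and ALG8 at -0.22, had the opposite sign. With neighbours at any level, the median around THRSP was -0.10. For the other 6 genes the median of the neighbours was between -0.11 for ARRDC3 and 0.09 for MLX. ARRDC4, toward the end of chromosome 15, had 21 such neighbours.

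**Figure D5:**
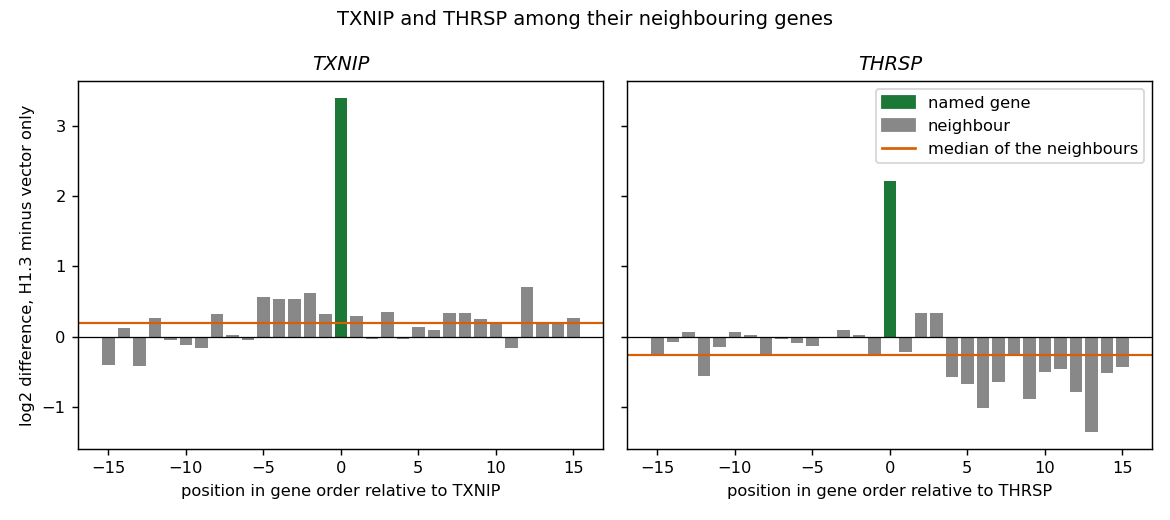
Bars give the log2 difference, H1.3 minus vector only (vertical axis), of TXNIP and THRSP (green) and of their 30 neighbours in gene order (grey), with an orange line at the neighbours' median, 0.19 and -0.26. The neighbours of TXNIP are mostly positive, and those after THRSP are mostly negative.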

How the data were processed

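Per the labels' protocols, total RNA of OVCAR-3 cells was extracted with TRIzol, cleaned on RNeasy columns and labelled with biotin. The authors deposited log2 values per transcript cluster and array, with 2 decimals. The submitters' processing notes name RMA and Affymetrix Expression Console, without versions. RMA removes background, equalises array distributions and summarises probes, so no probe or background could be examined here. The series text names an exon array, whereas the identifiers are those of a gene array's annotation; for the array itself, the labels and files state no genome build. The median log2 value per array was 6.21 to 6.27.

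Of 33297 clusters, 21214 were named: 19460 with 1 symbol and 1754 with several. Symbols were updated by gene identifier to RefSeq GRCh38.p14 (19429 of the single-symbol clusters found). Where a gene had several clusters, that with the highest mean was used. Limma 3.58.1 in R 4.3.3 (lmFit, eBayes, two-sided, 4 arrays, no covariate) compared H1.3 minus vector only over the named clusters, with Benjamini-Hochberg adjustment and a threshold of 0.05; the steps were tested on simulated data. The number of arrays limits the precision: the median moderated SE was 0.13. The genes and lists were chosen with earlier results of these data known. From each list, passing genes, or else the 2 of smallest p, are named, as are the 5 genes nearest to TXNIP and to THRSP; SLC2A1, TXN, MID1IP1, GFPT1, PAX8 and WT1 were added for their role. Alternatives changed moderation, scaling, the clusters tested, the threshold, the replicate term, the level of the neighbours, or left out an array. Same-numbered arrays were not taken as pairs. Figures were drawn with matplotlib 3.10.9.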

Additional observations from a re-analysis of the deposited data

How the results depend on the processing

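With 2 arrays per group, the vector-only arrays set the sizes given above: the difference of TXNIP ran from 2.23 to 4.59 and that of THRSP from 1.46 to 2.995 when single arrays were left out. Under 6 other settings they were 3.40 to 3.44 and 2.22 to 2.26. ARRDC4 ran from -0.44 to 0.37, ARRDC2 from -0.10 to 0.03 and MLX from -0.04 to 0.02 without single arrays, so their signs are not settled; MLX was also 0.01 after a second quantile normalization. MLXIP and MLXIPL kept a positive sign and ARRDC3 a negative one in the refits run. With neighbours at any level, the median was -0.10 around THRSP, 0.17 around TXNIP and 0.02 to 0.07 around the other 6 genes.

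Over all named clusters, 51 were higher and 56 lower. A robust intensity trend gave 107 and 138, no moderation 6 and 3, repeated quantile normalization 29 and 38, equal array medians 19 and 31, testing only clusters at or above the median level 6 and 19, testing unnamed clusters too 1 and 3, and an adjusted p under 0.10 gave 135 and 176. The pathway lists had 0 calls in these settings except at an adjusted p under 0.10, where 2 genes (PNPLA3 and PPARGC1A) passed. Leaving out each array gave 0 to 0 calls in both directions in limma (1292 to 2367 clusters at an unadjusted p under 0.05), where the lone array is taken to vary as the other group does. In the fit with a replicate block, from the numbers in the titles, 0 clusters were higher and 0 lower (2195 at an unadjusted p under 0.05), and the differences of TXNIP and THRSP were 3.41 and 2.23. The replicate differences of the groups correlated at 0.06 across clusters, and the labels state no shared batch. The cause of these changes was not tested.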
